A study of Mus musculus with 4 samples.

Results

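The genes described here are 7 interstitial collagen chains (Col1a1, Col1a2, Col3a1, Col5a2, Col6a1, Col6a2 and Col6a3) and 3 small leucine-rich proteoglycans (Lum, Dcn and Bgn), the structural proteins of the fibrous matrix between kidney tubules. All probe sets that the platform annotation assigns to these symbols alone were taken, which gave 17 of 22690 probe sets for 10 of 12394 named genes, and all 10 genes passed the filter on low values that left 8207 genes. The RNA came from the whole kidney of C57BL/6 animals, all labelled male and aged 17 weeks, and 1 array was run for each of 4 groups. GN+Captopril mice had glomerulonephritis (GN), raised by injecting 10 mg of horse spleen apoferritin on 5 days a week and 100 µg of lipopolysaccharide 3 times a week into the peritoneum for 6 weeks, and received captopril, which blocks angiotensin converting enzyme, at 100 mg/kg/day in their drinking water. GN+Water mice had the same injections and drank water. Saline+Captopril mice were injected with 0.15 M NaCl and received the drug, and Saline+Water mice were injected with 0.15 M NaCl and drank water. Kidneys were taken after 9 weeks. Each group had 6 mice, whether the RNA on an array was pooled is not stated, and with 1 array per group no difference below has an error or a test.

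Interstitial collagens are secreted by fibroblasts and pericytes. Types I, III and V form the striated fibrils, with type V in the fibril core, and type VI forms beaded filaments that link fibrils to cells. Lumican, decorin and biglycan bind the fibrils and regulate their diameter and spacing, and biglycan also acts as a signal to innate immune receptors when it is released. Build-up of these proteins in the interstitium is the hallmark of kidney fibrosis.

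Before the results, 2 arrays need a remark. The array labelled GN+Water went against its male label, with Xist at 8.97 (log2) against 5.02 to 5.21 on the other 3 arrays and the Y-linked Eif2s3y at 3.43 against 8.02 to 8.29. A label of this array, of sex or of group, may be wrong, which cannot be settled here. "With GN on water" below means the array labelled GN+Water minus Saline+Water, and rests on that label. Saline+Water stood apart in its spike-in controls, whose median was 10.8 against 7.46 to 7.89 on the others, and correlated with the other arrays at 0.945 to 0.966, while those 3 correlated with each other at 0.982 to 0.994. Of 9 kidney genes measured, Umod, Slc34a1, Lrp2 and Aqp2 were at 9.91 or above on all 4 arrays. Nphs1 was the lowest of the 9, at 7.08 to 7.90. With GN on water 3 of the 9 were at least 1.5-fold higher (Slc12a1 at 1.14, Aqp2 at 1.02 and Cubn at 0.66) and 0 lower. The shares of all expressed genes were 19.6% and 15.3%. With GN on captopril 0 of the 9 passed 1.5-fold. Each value below is a log2 probe set value, and a difference is between 2 arrays on that scale. Where a gene has several probe sets, the brightest on average stands for it, and a level at or under 4.36 to 4.81, the 90th percentile of the negative-control probe sets of each array, is called near background. In a whole kidney, more matrix-producing cells and more RNA per cell cannot be told apart.

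All 10 genes had their highest level on the array labelled GN+Water, whereas 27.8% of all expressed genes did. For 9 of the 10, Col1a1 being the exception, the order was the array labelled GN+Water above GN+Captopril above Saline+Captopril, an order held by 17.7% of expressed genes. The lowest level lay on Saline+Water for 5 genes (41.3% of expressed genes), on Saline+Captopril for 4 (12.8%) and on GN+Captopril for Col1a1. Of the 17 probe sets, 16 were highest on the array labelled GN+Water and 1, the second of Col1a1, on Saline+Water. The plot of levels by array shows each probe set.

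**Figure D1:**
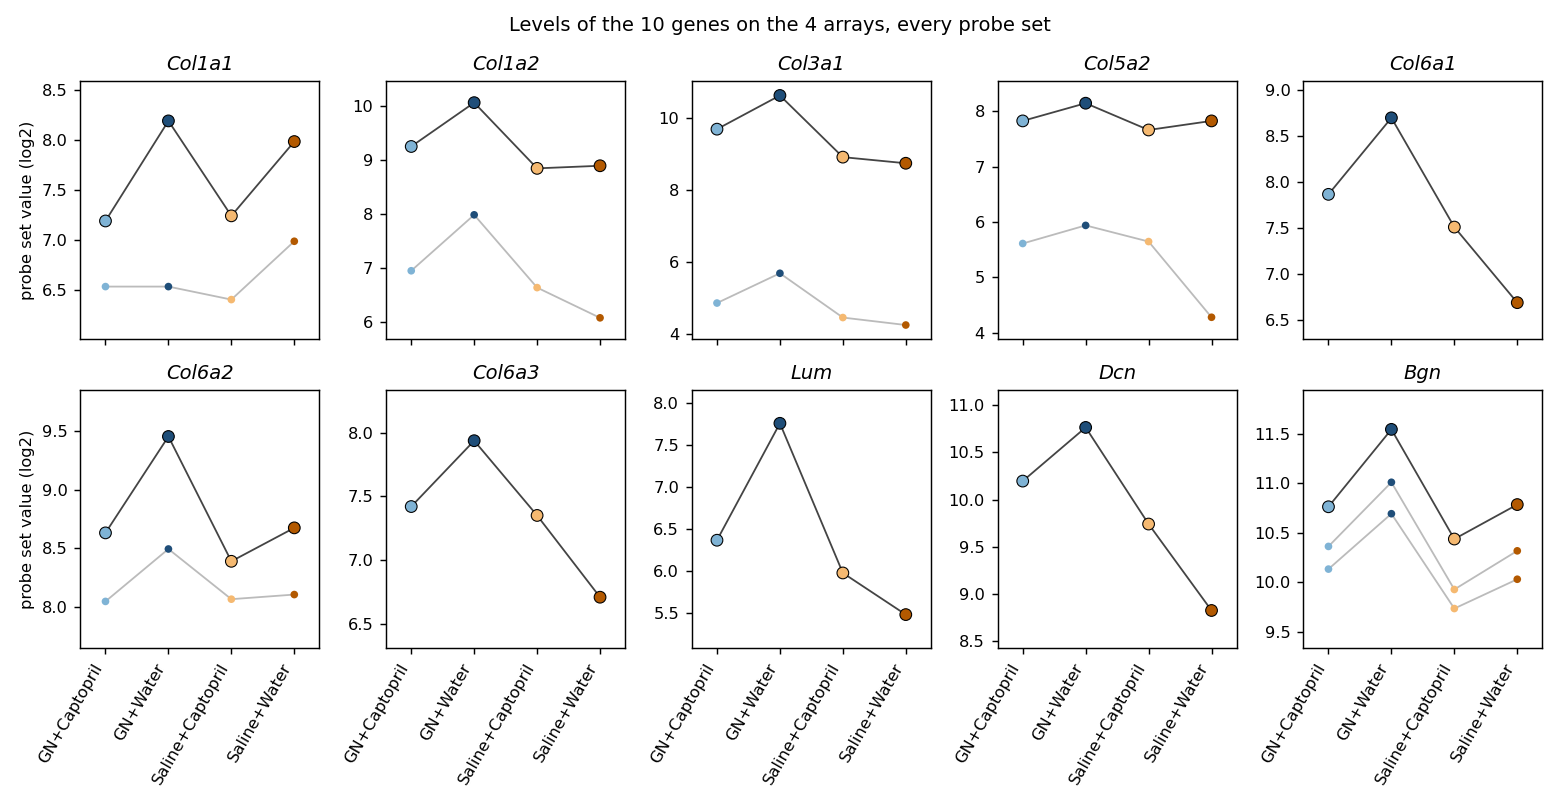
Probe set values (log2) of the 10 genes on the 4 arrays, with 1 panel per gene and its own vertical range. Large outlined points are the probe set that represents the gene, small points its other probe sets, and lines only join the points of a probe set. The array labelled GN+Water is highest in all 10 panels for the representative probe set.

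Type I collagen, the main protein of fibrils, is built from the products of Col1a1 and Col1a2. Col1a2 was at 9.24 on GN+Captopril, 10.05 on the array labelled GN+Water, 8.84 on Saline+Captopril and 8.88 on Saline+Water, so the GN array on water stood clear of 3 arrays that lay close together. This made it 2.25-fold higher with GN on water and 1.32-fold higher with GN on captopril. Its other probe set, at 6.94, 7.98, 6.63 and 6.07 on the same arrays in that order, gave 3.75-fold and 1.24-fold. Col1a1 did not share this pattern: it was at 7.19 on GN+Captopril, 8.19 on the array labelled GN+Water, 7.24 on Saline+Captopril and 7.99 on Saline+Water. Both water arrays were high and both captopril arrays low, and with GN it was 1.15-fold higher on water and 1.04-fold lower on captopril. The second probe set of Col1a1 was at 6.53 on both GN arrays, 6.40 on Saline+Captopril and 6.99 on Saline+Water, which placed the array labelled GN+Water 1.37-fold below Saline+Water. With GN the probe sets of Col1a1 thus differed in direction, while those of Col1a2 did not.

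Col3a1 encodes type III collagen, which is laid down with type I in young fibrils. It was at 9.69 on GN+Captopril, 10.62 on the array labelled GN+Water, 8.91 on Saline+Captopril and 8.74 on Saline+Water. Both GN arrays lay above both saline arrays, and Col3a1 was 3.68-fold higher with GN on water and 1.71-fold higher with GN on captopril. Its second probe set was dim, with 4.87 on GN+Captopril and 5.69 on the array labelled GN+Water, and was near background on both saline arrays, at 4.46 and 4.26. Against the background limit, that probe set was at least 1.84-fold higher with GN on water and at least 1.28-fold higher with GN on captopril.

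Col5a2, a chain of the type V collagen that starts fibrils, had the smallest range of levels among the 10. It was at 7.82 on GN+Captopril, 8.14 on the array labelled GN+Water, 7.66 on Saline+Captopril and 7.82 on Saline+Water, which is 0.32 higher with GN on water and 0.16 higher with GN on captopril. Its dimmer probe set was at 5.61, 5.94 and 5.65 on the first 3 of these arrays and near background, at 4.28, on Saline+Water. That probe set was at least 2.19-fold higher with GN on water and 1.02-fold lower with GN on captopril. Col3a1 and Col5a2 are next to each other on chromosome 1, with 0 annotated genes between them in GRCm38.p6, and their differences with GN on water were 1.88 and 0.32.

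The upstream sequences of 3 members are shown because these genes shared their highest array and yet differ in base composition. Of the 10 genes, 6 were matched to RefSeq promoter windows, namely Col1a2, Col3a1, Col6a1, Col6a2, Col6a3 and Bgn. Each sequence holds the 250 bases before the annotated start, 5′ to 3′ on the gene's strand, in build GRCm38.p6. The motifs were picked after the sequences had been seen. Capitals mark the motif CCAAT, the motif TATAAA, the motif GGGCGG (the core of the Sp1 site) or the motif CAGACA (which holds the CAGA element that SMAD proteins bind), read on either strand.
Col1a2, chr6:4505368-4505617, plus strand: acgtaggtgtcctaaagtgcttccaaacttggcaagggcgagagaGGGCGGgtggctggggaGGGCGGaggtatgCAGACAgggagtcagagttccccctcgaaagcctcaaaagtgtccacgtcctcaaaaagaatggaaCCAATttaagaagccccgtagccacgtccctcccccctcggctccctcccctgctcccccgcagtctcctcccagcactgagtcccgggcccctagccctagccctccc
Col3a1, chr1:45311288-45311537, plus strand: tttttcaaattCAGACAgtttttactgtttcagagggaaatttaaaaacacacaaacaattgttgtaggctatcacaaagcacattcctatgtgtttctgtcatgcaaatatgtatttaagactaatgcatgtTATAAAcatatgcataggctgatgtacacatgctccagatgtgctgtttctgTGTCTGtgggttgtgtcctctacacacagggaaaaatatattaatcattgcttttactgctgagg
Bgn, chrX:73483351-73483600, plus strand: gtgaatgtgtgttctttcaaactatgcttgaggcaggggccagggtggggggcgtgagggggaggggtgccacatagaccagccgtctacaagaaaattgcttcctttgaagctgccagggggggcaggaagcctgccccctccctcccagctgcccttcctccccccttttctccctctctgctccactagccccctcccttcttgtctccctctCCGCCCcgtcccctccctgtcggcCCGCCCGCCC

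The window of Col1a2 was 62.0% G or C and held CCAAT 109 bases before the start, GGGCGG at 205 and 188 bases and CAGACA at 175 bases. The window of Col3a1 was 35.2% G or C, held TATAAA at 117 bases and CAGACA at 239 and, reversed, at 65 bases. Bgn, at 64.4% G or C, held 3 reversed GGGCGG matches, at 34, 10 and 6 bases, of which the last 2 overlap each other; no match overlaps that of a different motif. Among all 32851 promoter windows, CCAAT was found in 33.8%, TATAAA in 12.4%, GGGCGG in 32.7% and CAGACA in 17.1%. Among the 7 windows of the 6 genes (Col6a2 has 2) the counts were 1, 1, 4 and 2, and the windows of Col6a1 and Col6a3 held no match. These are matches of letters and say nothing of binding.

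Type VI collagen is a heterotrimer of the products of Col6a1, Col6a2 and Col6a3. Col6a1 was at 7.87 on GN+Captopril, 8.70 on the array labelled GN+Water, 7.51 on Saline+Captopril and 6.69 on Saline+Water. The 2 saline arrays were 0.82 apart, more than GN+Captopril was from Saline+Captopril, and Col6a1 was 4.03-fold higher with GN on water and 1.28-fold higher with GN on captopril. Col6a3 had the same order of arrays, at 7.42, 7.94, 7.35 and 6.71, and was 2.34-fold higher with GN on water and 1.05-fold higher with GN on captopril. Col6a2 was at 8.63 on GN+Captopril, 9.46 on the array labelled GN+Water, 8.39 on Saline+Captopril and 8.67 on Saline+Water. Unlike the other 2 chains it had its lowest level on Saline+Captopril, and it was 1.72-fold higher with GN on water and 1.18-fold higher with GN on captopril. Its second probe set, whose name marks possible cross-hybridisation, was at 8.04, 8.49, 8.06 and 8.10, so that only the array labelled GN+Water stood out. Col6a1 and Col6a2 lie on chromosome 10 with 0 protein-coding genes between them, and their differences with GN on water were 2.01 and 0.78.

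Lumican, a keratan sulfate proteoglycan, showed the widest span of the 10 genes. Lum was at 6.36 on GN+Captopril, 7.76 on the array labelled GN+Water, 5.97 on Saline+Captopril and 5.48 on Saline+Water, so both GN arrays lay above both saline arrays. It was 4.86-fold higher with GN on water, a difference exceeded by 92 of 8207 genes, and 1.31-fold higher with GN on captopril, exceeded by 287. Lum passed the filter limit of 6.27 only through the array labelled GN+Water, and its levels on both saline arrays were under that limit. Decorin, which binds type I collagen and transforming growth factor beta, followed the same order: Dcn was at 10.20, 10.77, 9.74 and 8.82. Dcn was 3.85-fold higher with GN on water and 1.37-fold higher with GN on captopril, and the 2 saline arrays were 0.92 apart. Lum and Dcn are neighbours on chromosome 10 with 0 annotated genes between them.

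Biglycan is the close relative of decorin and is encoded on the X chromosome. Bgn was at 10.76 on GN+Captopril, 11.54 on the array labelled GN+Water, 10.44 on Saline+Captopril and 10.78 on Saline+Water. The first and last of these were level, and the array labelled GN+Water, which is the one with high Xist, was 0.76 above the next. Bgn was 1.69-fold higher with GN on water and 0.33 higher on the log2 scale with GN on captopril. Its other 2 probe sets were at 10.13 and 10.36 on GN+Captopril, while the array labelled GN+Water had 10.69 and 11.01, Saline+Captopril 9.73 and 9.93, and Saline+Water 10.03 and 10.32. They were also highest on the array labelled GN+Water and lowest on Saline+Captopril, and were 1.58-fold and 1.62-fold higher with GN on water. Whether the sex-linked difference has a part in the Bgn values was not tested.

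The first comparison asks how GN kidneys differed from saline kidneys in mice on water. On the array labelled GN+Water, 8 of the 10 genes exceeded their Saline+Water level by 1.5-fold or more and 0 were lower, with Col1a1 and Col5a2 in between; the shares of all expressed genes past 1.5-fold were 19.6% upward and 15.3% downward. The median difference of the 10 was 1.20, against 0.00 over all expressed genes, and the values ran from 0.21 for Col1a1 to 2.28 for Lum. At 2-fold the counts were 6 higher and 0 lower, with 10.3% of expressed genes this much higher and 4.42% lower. Saline+Water is the array with discordant spike-ins. Against Saline+Captopril in its place, 9 of 10 genes were at least 1.5-fold higher on the array labelled GN+Water, with 6.31% of expressed genes this much higher, and the median was 1.09. The exception was Col5a2 at 0.48. That baseline raised the Col1a1 difference to 0.95 and lowered those of Col6a1, Dcn and Col6a3 to 1.19, 1.03 and 0.59. With the GN+Captopril array used instead, 5 genes exceeded Saline+Water by 1.5-fold and 1, Col1a1, was lower, and the median was 0.53. The share of all expressed genes this much higher was 17.2%, and the share lower was not counted.

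The comparison of GN with saline in mice on captopril uses neither of those arrays. Col3a1 alone was at least 1.5-fold higher on GN+Captopril than on Saline+Captopril and 0 of 10 were lower, in a comparison where 1.85% of expressed genes were this much higher and 0.207% lower. At 2-fold the counts were 0 and 0, with 0.719% of expressed genes higher and 0.0244% lower. At a lower threshold of 0.32 on the log2 scale 6 of 10 were higher, with 5.03% of expressed genes. The median difference was 0.34, against 0.00 over all expressed genes, and 9 of 10 were above 0, Col1a1 at −0.05 being the exception. Few genes differed much between these arrays: the 1.31-fold to 1.37-fold differences of Lum, Col1a2 and Dcn were each exceeded by 224 to 287 of 8207 genes, and the 1.71-fold difference of Col3a1 by 86. Col6a3, at 1.05-fold higher, was exceeded by 2379.

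**Figure D2:**
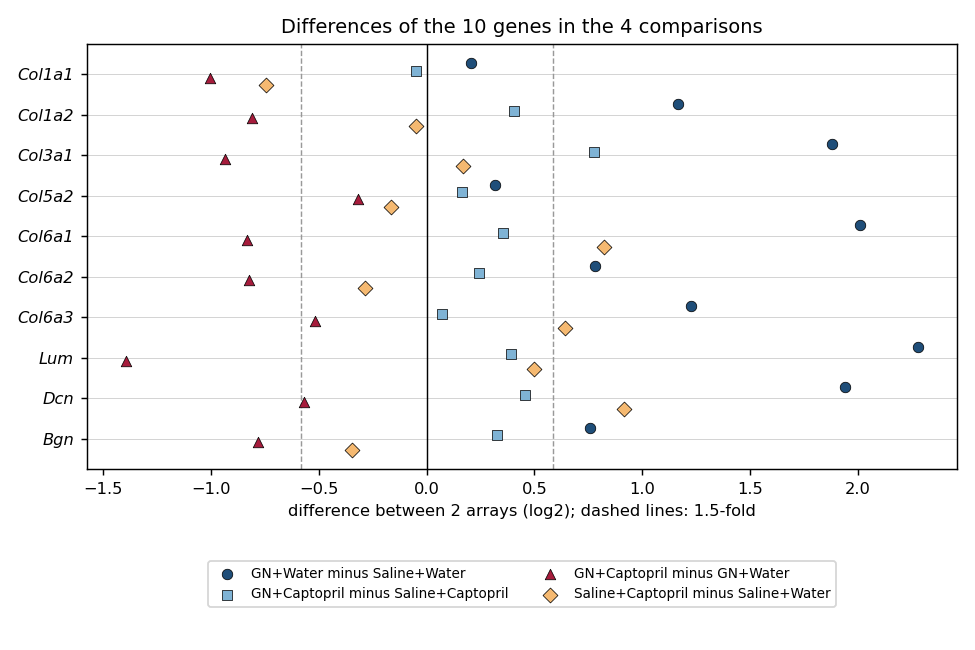
Log2 differences of the 10 genes in the 4 comparisons, 1 row per gene, each point a difference between 2 arrays and dashed lines at 1.5-fold. The difference with GN on water (circles) lies right of that on captopril (squares) for all 10 genes by the brightest probe set, and GN+Captopril minus GN+Water (triangles) is below 0 for all 10.

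By the brightest probe set, the difference with GN was larger on water than on captopril for all 10 genes. The second probe set of Col1a1 went the other way, at −0.45 on water and 0.13 on captopril, and so did the mean of the Col1a1 probe sets, at −0.12 and 0.04. The difference of the 2 differences had a median of 0.93, ranging from 0.16 for Col5a2 and 0.26 for Col1a1 to 1.65 for Col6a1 and 1.89 for Lum; over all expressed genes its median was 0.00. Across the 10 genes the differences on water and on captopril, which share no array, had a Pearson correlation of 0.687 and a Spearman correlation of 0.648; genes are not independent replicates, and this is a description.

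The comparison of GN kidneys with and without the drug asks whether captopril goes with lower matrix transcripts in GN. On GN+Captopril, 7 of 10 genes lay 1.5-fold or more below the array labelled GN+Water and 0 above it, while 4.52% of expressed genes were this much lower and 3.7% higher. At 2-fold 2 were lower, Lum and Col1a1, and 0 higher, with 1.12% and 1.39% of expressed genes. The median difference was −0.82, against 0.00 over all expressed genes. Lum was 2.63-fold lower, and 40 of 8207 genes had a lower difference. Col1a1 was 2.01-fold lower by its brighter probe set and level by the other, Col3a1 1.91-fold lower and Col6a1 1.78-fold. Col1a2, Col6a2 and Bgn were 1.75-fold, 1.77-fold and 1.72-fold lower. Dcn at 1.48-fold, Col6a3 at 1.43-fold and Col5a2 at −0.32 did not reach 1.5-fold. Here no other array can replace the one with high Xist, and the part of that difference in these values was not tested.

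In saline mice no common direction was seen with the drug. On Saline+Captopril, 3 of 10 genes lay 1.5-fold or more above Saline+Water (Dcn at 1.89-fold, Col6a1 at 1.77-fold and Col6a3 at 1.56-fold) and 1 was lower (Col1a1 at 1.68-fold), against 15.6% and 10.2% of expressed genes. At 2-fold 0 were higher and 0 lower, with 6.43% and 2.08% of expressed genes. At 0.32 on the log2 scale 4 were higher and 2 lower, with 23.2% of expressed genes this much lower. The share of expressed genes this much higher was not counted. The median difference was 0.06, against 0.01 over all expressed genes. Lum was 1.41-fold and Col3a1 1.13-fold higher, and Bgn 1.27-fold, Col6a2 1.22-fold, Col5a2 1.12-fold and Col1a2 1.03-fold lower. The dimmer probe sets of Col5a2 and Col1a2 went the other way, at least 1.79-fold and 1.47-fold higher. Those of Col1a1, Col3a1, Col6a2 and Bgn kept the direction of the brightest. The array with discordant spike-ins is part of this comparison.

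**Figure D3:**
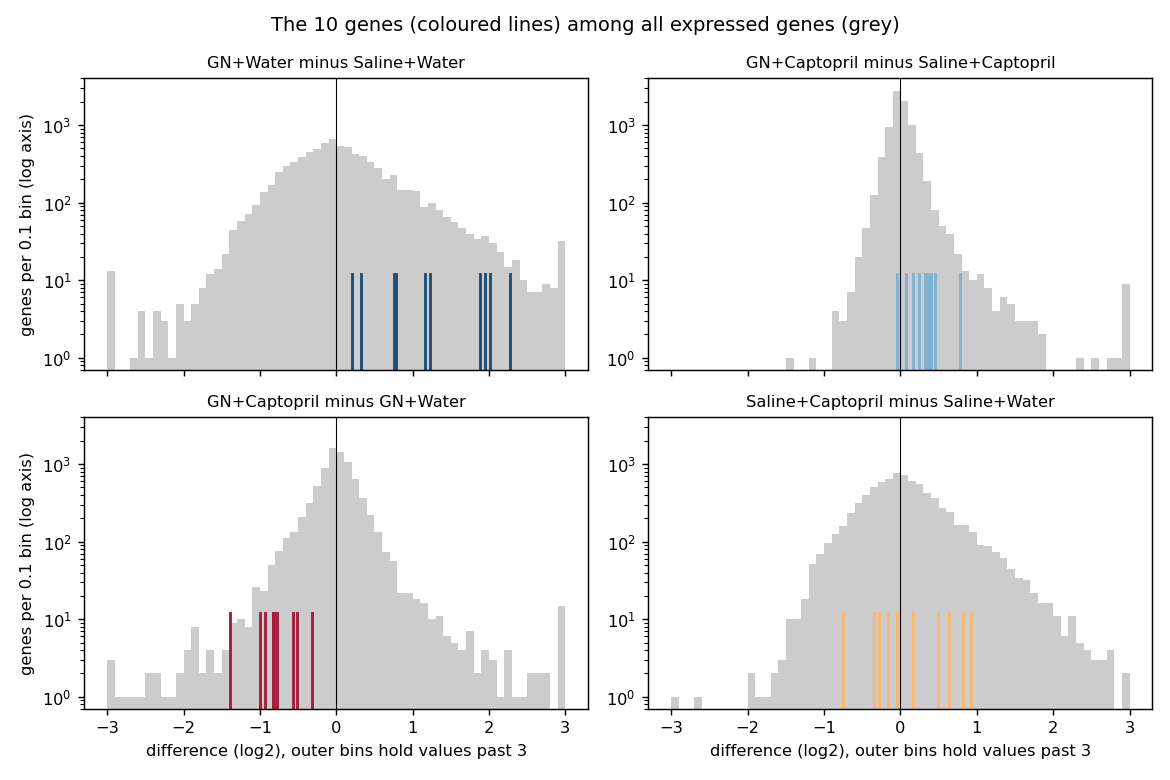
Distribution of the log2 difference over 8207 expressed genes (grey, number of genes per 0.1 bin on a log axis; the outer bins also hold values past 3) with the 10 genes as coloured lines, for the 4 comparisons. The comparisons that use Saline+Water are the widest, and the 10 genes lie right of 0 with GN on water, left of 0 for GN+Captopril minus GN+Water, and on both sides of 0 in saline mice.

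Other matrix genes are set beside the shares of all expressed genes past 1.5-fold, 19.6% higher and 15.3% lower with GN on water. On captopril these shares were 1.85% and 0.207%. Of 14 other interstitial collagen chains, 11 had a probe set and 7 passed the filter. With GN on water the median of the 7 was −0.04, and 1 was higher and 1 lower by 1.5-fold. The higher one was Col14a1, which coats fibrils, at 1.80, but its level of 6.86 on Saline+Water was far under the 8.22 on Saline+Captopril, and on captopril its GN difference was 0.04. Col9a3, a cartilage collagen chain, was at −1.11 and Col12a1, another fibril-associated chain, at −0.48 with GN on water. On captopril the largest differences of these 7 were −0.35 for Col9a3, −0.22 for Col16a1 and 0.20 for Col5a1, the partner chain of Col5a2, and 0 of 7 reached 1.5-fold.

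Among 9 further small leucine-rich proteoglycans 3 passed the filter. Ogn, or osteoglycin, was at 9.01 on GN+Captopril, 9.67 on the array labelled GN+Water, 8.82 on Saline+Captopril and 7.56 on Saline+Water, which gave differences of 2.12 with GN on water and 0.19 on captopril. Prelp, which anchors basement membranes to connective tissue, was at 0.67 and 0.47 with 1 of 2 probe sets in the same direction on water, and Fmod, the fibril regulator fibromodulin, at −0.33 and −0.21.

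Enzymes and chaperones of collagen synthesis and crosslinking had counts near the shares of all expressed genes. Over 16 expressed genes the median with GN on water was −0.08, with 3 past 1.5-fold upward and 3 downward (shares 19.6% and 15.3%). On captopril 0 of 16 reached 1.5-fold (shares 1.85% and 0.207%). Sparc, a collagen-binding protein of matrix assembly, was at 1.31 on water and 0.38 on captopril. Loxl1, a crosslinking enzyme, was at 0.71 and 0.39, and Plod1, a lysyl hydroxylase, at −0.49 and 0.23. P4ha2, a prolyl hydroxylase subunit, was at −1.42 on water, and the crosslinking transglutaminase Tgm2 at −1.09, although 3 of the 6 probe sets of Tgm2 differed in direction. The collagen chaperone Serpinh1 was at 0.07 on water and 0.03 on captopril. Among the 3 genes under the filter, the crosslinking enzyme Lox was at 1.64 on water, with 2 of 3 probe sets in that direction, and 0.22 on captopril. The procollagen processing enhancer Pcolce2 was at 2.03 and 0.82, with Pcolce2 near background on Saline+Water, and Loxl3 was at −0.43 and −0.07.

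Genes of collagen breakdown had 4 of 8 expressed members at least 1.5-fold higher with GN on water, 0 lower and a median of 0.61. This median depended on the filter: over all 13 breakdown genes with a probe set it was 0.04 on water and 0.06 on captopril. On captopril 1 of 8, Timp1, was higher, with a median of 0.23. Timp1 is also 1 of the 4 on water, and it passed the filter only through its level on the array labelled GN+Water. The shares of all expressed genes were 19.6% higher and 15.3% lower on water, and 1.85% higher on captopril. The inhibitor Timp2 was at 1.63 on water and 0.42 on captopril, the membrane collagenase Mmp14 at 1.61 and 0.58, and the inhibitor Timp1 at 0.92 and 0.69. Of the collagen receptors 4 were expressed and 1, Ddr1, was at least 1.5-fold higher on water, against 19.6% of all expressed genes. Ddr1 was at 1.08 on water with 5 of 8 probe sets in that direction, and at 0.02 on captopril. Ddr2, the receptor of fibroblasts, was at 0.44 and 0.09, and the integrin chain Itgb1 at 0.30 and 0.07, with 2 of its 6 probe sets in that direction on water.

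Partners of collagen in the fibrous matrix were higher with GN on water in 5 of 9 cases at 1.5-fold, with 0 lower and a median of 0.59. On captopril 0 of 9 were higher. The shares of all expressed genes were 19.6% higher and 15.3% lower on water, and 1.85% higher on captopril. Efemp1, or fibulin-3, was at 2.89, but Saline+Water alone was low, at 5.50 against 7.85 to 8.39 elsewhere. Dpt, or dermatopontin, which binds decorin, was at 2.01 on water and 0.21 on captopril. Fn1, or fibronectin, was at 1.42 and 0.15 by its brighter probe set, and its other probe set differed in direction on water. On captopril the largest differences were 0.37 for the elastic fibre protein Emilin1, −0.29 for elastin (Eln) and 0.23 for thrombospondin 1 (Thbs1). Each of these 3 has 2 probe sets, and the dimmer one differed in direction from the brighter on water.

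Basement membrane genes, the sheet-forming counterpart, had a median of 0.07 with GN on water over 15 expressed members. By 1.5-fold 4 were higher and 3 lower, near the shares of all expressed genes (19.6% and 15.3%). On captopril the median was 0.01 with 0 of 15 past 1.5-fold (shares 1.85% and 0.207%). Nid1, or nidogen, was at 1.36 on water. Col4a3 was at −1.73 and Col4a5 at 1.30, and for both the array that stood apart was Saline+Water, at 11.22 and 6.65 against 9.09 to 9.50 and 7.93 to 7.94 on the others. The second probe set of Col4a5 differed in direction on water. On captopril the largest were 0.48 for the laminin chain Lama3, 0.32 for Col4a1 and −0.31 for perlecan (Hspg2). Across these 7 matrix lists, the median with GN on water lay between −0.08 and 0.67, against 1.20 for the 10 genes. Without the filter the medians of the 7 lists lay between −0.29 and 0.53. The lists were chosen with results known, and the difference between lists was not tested.

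**Figure D4:**
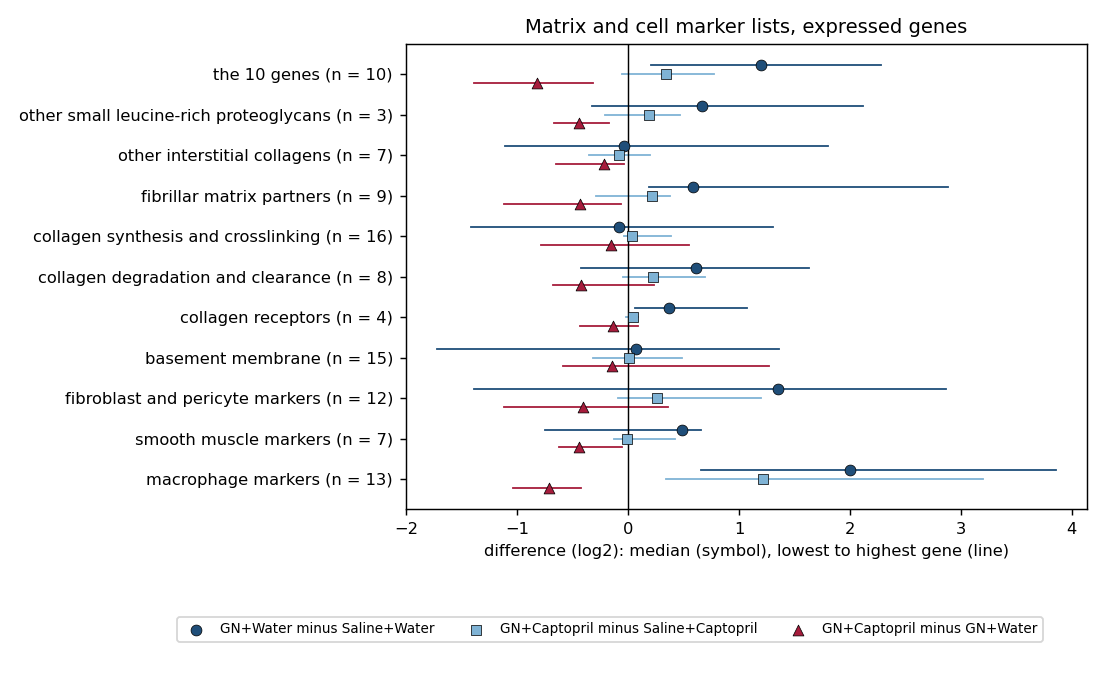
Median log2 difference (symbol) and lowest to highest gene (line) of the expressed members of matrix and cell marker lists in 3 comparisons. The 10 genes have a median of 1.20 with GN on water, 0.34 with GN on captopril and −0.82 for GN+Captopril minus GN+Water; macrophage markers have 1.22 with GN on captopril and −0.71 for GN+Captopril minus GN+Water.

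Markers of the cells that make or surround this matrix differed in the same comparisons. Of 14 fibroblast and pericyte markers all had a probe set, 12 passed the filter and 0 were near background on all 4 arrays. With GN on water the median of the 12 was 1.35, with 9 higher and 2 lower by 1.5-fold (19.6% and 15.3% of all expressed genes). On captopril 3 of 12 were higher (1.85% of all expressed genes) with a median of 0.26. Pdgfra was at 8.43 on GN+Captopril, 9.00 on the array labelled GN+Water, 8.11 on Saline+Captopril and 6.88 on Saline+Water, and Cdh11, a fibroblast cadherin, at 7.55, 8.46, 7.03 and 5.60. These are the largest differences of the list, and 4 of the 14 markers were lower with GN on water, namely Meg3 (−1.39), Nt5e (−1.08), Gli1 (−1.07) and Pi16 (−0.25), all 4 highest on Saline+Water. Summed on the linear scale, the 14 markers had 3804 units on GN+Captopril, 5126 on the array labelled GN+Water, 3058 on Saline+Captopril and 2776 on Saline+Water; the 10 matrix genes had 5594, 9515, 4275 and 4257. The smooth muscle list, with Acta2, a marker of myofibroblasts, had 1 of 7 expressed members at least 1.5-fold higher and 1 lower with GN on water (shares 19.6% and 15.3%). Its sums were 3150, 4271, 3023 and 3554.

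Macrophage markers were higher on both GN arrays. With GN on water 13 of 13 expressed markers were at least 1.5-fold higher (19.6% of all expressed genes), with a range of 0.66 to 3.86. On captopril 12 of 13 were (1.85% of all expressed genes), with a range of 0.34 to 3.20. The sums over 14 markers were 11795 on GN+Captopril, 19701 on the array labelled GN+Water, 4083 on Saline+Captopril and 3946 on Saline+Water. Adipocyte sums over 7 markers, for a tissue rich in decorin and collagen VI that adjoins the kidney, were 11144, 7867, 9036 and 7906 in the same order, and their brightest member Lpl, at 12.22 to 12.92, weighs most in them. Of the 4 expressed adipocyte markers, 3 were at least 1.5-fold higher with GN on water (Adipoq at 2.02, Fabp4 at 0.89 and Retn at 0.65, while Lpl was at −0.38), with a median of 0.77. On captopril 2 were higher (Adipoq at 1.15 and Fabp4 at 0.73), with a median of 0.44. The shares of all expressed genes were 19.6% on water and 1.85% on captopril. Only 2 of the 4 probe sets of Fabp4 were higher with GN on water. The 3 adipocyte markers under the filter were lower with GN on water, Lep at −0.65, Cidec at −0.22 and Adig at −0.80. Over all 7 adipocyte markers the median was −0.22 with GN on water and 0.16 on captopril. All 8 measured muscle and bone markers were highest on Saline+Water, as were 39.5% of all expressed genes, with sums of 2020, 2116, 2011 and 3293. Most of these sums is Alpl, at 10.72 to 11.46, which kidney tubules also express, and Myh4 and Myh2 were near background on all 4 arrays. The part of these cells in the values of the 10 genes was not tested.

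The profiles most like that of the 10 genes were found by the root mean square distance between each gene's centred levels on the 4 arrays and the mean centred profile of the 10, over 8207 genes. That mean profile stood at −0.01 on GN+Captopril, 0.79 on the array labelled GN+Water, −0.32 on Saline+Captopril and −0.47 on Saline+Water. The 8 nearest genes outside the list were Flna (distance 0.03), Sparc (0.03), C1s1 (0.04), Selenow (0.04), Pip4k2a (0.05), Ifitm2 (0.05), Pon3 (0.06) and Blnk (0.06). Flna encodes the actin crosslinker filamin A, C1s1 a complement protease, Ifitm2 an interferon-induced membrane protein and Blnk a B cell adaptor. Of the 10 genes themselves Col1a2 was nearest to their mean, at 0.07, and Col1a1 farthest, at 0.48. With 4 arrays many genes can take a similar profile, and the distance shows likeness on these arrays alone.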

How the data were processed

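Per the labels' protocols, biotinylated cRNA made from 6 µg of kidney RNA was run on Affymetrix arrays. The authors deposited 1 log2 value per probe set, a scale read from the range of the values. GCOS and RMA are named, without version or role, per the submitters' processing notes; for background correction, normalisation and build the sources used here give nothing. Values were used as deposited. Of 22690 probe sets, 20393 had 1 symbol, 691 several and 1606 none in the platform annotation, and symbols were updated through the Entrez ID with a RefSeq table of GRCm38.p6. The filter kept genes whose representative probe set had a mean of at least the 40th percentile of all probe sets, 6.27. Lum passed it only through its level on the array labelled GN+Water, and so did Timp1. Hsd3b1 passed it only through GN+Captopril, and Cyp21a1 only through Saline+Water. With 1 array per group there are 0 residual degrees of freedom, so genes past 1.5-fold were counted beside the same count over all expressed genes. Precision is limited by the number of arrays. The 10 genes, the lists and the alternatives were chosen with earlier results of these data known. Genes named from other matrix lists were the 3 with the largest absolute difference in each GN comparison, plus the 8 nearest profiles. Serpinh1, Pdgfra, Cdh11, Acta2, Umod, Slc34a1, Lrp2, Aqp2, Nphs1, Slc12a1, Cubn, S100a4, Vim, Thy1, Tcf21, Lox, Loxl3, Pcolce2, Meg3, Nt5e, Gli1, Pi16, the adipocyte and adrenal markers, Alpl, Myh2, Myh4, Xist and Eif2s3y were named after their values were seen. The tissue check list and the 1.5 times tolerance for alternatives were added after the files were seen. Alternatives used limma 3.58.1 for quantile and cyclic loess normalisation, and the code was tested on simulated data.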

Additional observations from a re-analysis of the deposited data

Results flagged for a closer look

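For 6 of the 10 genes the same contrast ran in opposite directions in the 2 arms, each arm being a single pair of arrays, and the difference was not tested. Opposite signs are common here: the captopril contrast ran in opposite directions for 52.7% of 8207 expressed genes and 5 of the 10, and the GN contrast for 43.2% and 1 of the 10, so neither count is above the background. Lower in GN and higher in saline mice, the direction of all 5, was found for 25.6% of expressed genes. Captopril went with lower levels in GN mice and higher levels in saline mice for Lum (−1.39 in GN against 0.50 in saline, a difference of −1.89), Col6a1 (−0.83 against 0.82, −1.65), Dcn (−0.57 against 0.92, −1.49), Col6a3 (−0.52 against 0.64, −1.16) and Col3a1 (−0.93 against 0.17, −1.10). The GN arm uses the array with discordant sex-linked transcripts and the saline arm the array with discordant spike-ins. For Col1a1 the GN difference was 0.21 on water and −0.05 on captopril, 0.26 apart, and its second probe set had −0.45 on water and 0.13 on captopril.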

How the results depend on the processing

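Under the alternative settings 104 summary values stayed within 1.5 times of the reported value and 10 moved. For single genes 269 values stayed within that tolerance, 13 moved and 2 that had passed 1.5-fold changed sign. For a difference the tolerance is 1.5-fold, or 0.58 on the log2 scale, so a small difference can change sign within it. A change of filter cannot alter a single-gene value, nor can a probe set rule for a gene with 1 probe set. Part of the 269 values was thus fixed in advance. In all, 8 single-gene values changed sign, 6 of them from a value under 1.5-fold. With the mean of all probe sets these were Col1a1 with GN on water (−0.12) and on captopril (0.04) and, in saline mice, Col1a2 (0.26) and Col5a2 (0.60). The others of the 6 were Col1a2 in saline mice (0.56) without probe sets marked in their name, and Col1a1 (−0.80) with the array swap below. At 2-fold the count of genes higher with GN on captopril was 0, that of genes lower with captopril in GN mice was 2, and in saline mice 0 were higher and 0 lower with captopril. At 0.32 on the log2 scale 6 genes were higher with GN on captopril (5.03% of expressed genes). With captopril in saline mice 2 were lower (23.2%) and 4 higher (share not counted). Dropping probe sets with a mark in their name, such as _a_at or _x_at, removed both probe sets of Col6a2. Col3a1 was left with its dim probe set alone, which is under the filter. The mark _a_at of its brighter probe set does not by itself mean a match to another gene. Of the 8 genes left, 0 were at least 1.5-fold higher with GN on captopril. With the GN+Captopril array as the GN array on water, 5 genes were higher (17.2% of expressed genes) and 1 lower (share not counted) than on Saline+Water. The median was 0.53, and Col6a2 (−0.043) and Bgn (−0.022) changed direction. This setting swaps the treated array itself. Under 3 other normalisations, other filters and other probe set rules the median with GN on water lay between 0.97 and 1.57, that with GN on captopril between 0.31 and 0.36, and that of GN+Captopril minus GN+Water between −0.86 and −0.65. The median in saline mice lay between −0.11 and 0.53 and so has no settled sign. Substituting an array was possible only with GN on water and, for Saline+Water, in the difference of differences, which then equals the comparison of the 2 GN arrays with its sign turned (median 0.82). No paired analysis was possible because each group has 1 array.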

Other observations

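Fibroblast and pericyte markers did not all follow the collagens in captopril-treated mice. S100a4, a calcium-binding protein that macrophages also express, was at 7.68 on GN+Captopril, 8.10 on the array labelled GN+Water, 6.49 on Saline+Captopril and 6.34 on Saline+Water, a GN difference of 1.20 on captopril and 1.76 on water. The intermediate filament gene Vim was at 9.68, 10.24, 8.82 and 8.92, with 0.86 on captopril and 1.32 on water, and 3 of its 3 probe sets were higher with GN on water. Thy1 was at 0.64 and 0.68. Tcf21, a transcription factor of kidney stroma, was at −0.02 on captopril and 1.08 on water. On captopril the 10 matrix genes had differences between −0.05 and 0.78, so S100a4 and Vim exceeded all of them, and these comparisons between genes were not tested.

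Of 6 adrenal markers with a probe set, 2 passed the filter, and summed levels were 424.1 on GN+Captopril, 279.4 on the array labelled GN+Water, 305.9 on Saline+Captopril and 402.8 on Saline+Water. With GN on captopril 3 were above 0, Hsd3b1 (1.43), Cyp11a1 (0.60) and Star (0.26), and 3 below, Cyp21a1 (−0.06), Cyp11b2 (−0.10) and Mc2r (−0.32).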
